A study of Homo sapiens with 16 samples.

Results

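Expression of 8 genes that carry a death signal from the cell surface to the initiator caspases was followed in KG-1, an acute myeloid leukemia cell line of myeloblast-like cells. The genes were the death receptors FAS, TNFRSF10A, TNFRSF10B and TNFRSF1A, the adaptor FADD, the initiator caspases CASP8 and CASP10, and the caspase-8 inhibitor CFLAR. They were chosen by name, for their roles in the extrinsic apoptosis pathway, and all 8 were found among the 43836 genes of the counts table by their Ensembl identifiers. Each was detected in all 16 libraries.

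The 16 RNA-seq libraries came from 8 conditions with 2 libraries each. Control cells had been transduced with non-target lentiviral particles and FOXM1-KD cells with particles carrying an shRNA against FOXM1, a forkhead transcription factor of dividing cells, and every culture had been selected with 4 ug/mL puromycin. Control cells received 0.3% DMSO for 48 h, 50 uM STL427944, a compound described as a FOXM1 inhibitor, for 48 h, 30 uM MK-2206, an allosteric AKT kinase inhibitor, for 24 h, 0.75 uM cytarabine (AraC), a nucleoside analog used in leukemia therapy, for 48 h, or 100 nM venetoclax, a BCL-2 inhibitor, for 48 h. FOXM1-KD cells received DMSO, AraC or venetoclax at those doses and times. The labels do not say whether the transduced cells were a pool or a clone. The study's methods call the libraries of a condition biological replicates, while nothing in the labels says how they were separated. The p-values therefore rest only on the spread between these libraries, which each fit shares in part across all genes. This sharing was done separately for each comparison, so adjusted p-values are not comparable in size between comparisons. MK-2206 was given for 24 h and its DMSO control for 48 h, so the drug and the exposure time cannot be told apart.

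In the extrinsic pathway a ligand of the tumor necrosis factor family binds a death receptor at the cell surface. The receptors encoded by FAS, TNFRSF10A and TNFRSF10B then gather the adaptor FADD, which brings in pro-caspase-8 and pro-caspase-10. Caspases activated in that complex cleave the effector caspases, or cleave BID and thereby engage the mitochondrial route. FLIP, the product of CFLAR, resembles caspase-8 without its protease activity and limits its activation. Blood cells and leukemic blasts express most of this machinery, and the outcome of receptor binding depends on the balance between receptors, decoys and inhibitors.

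Total counts ran from 7351755 to 21362546 per library, with a median of 18106218. The MK-2206 libraries were the shallowest (7351755 and 10330720 counts), with 6.68% and 18.4% of their counts on mitochondrial genes against 1.32% to 3.05% in the others. Levels are given as CPM, a gene's share of the counts of its library, scaled by the trimmed mean of M-values (TMM) over all 16 libraries. Among protein-coding genes with a mean of at least 10 counts (12583 genes), Control STL427944 2 was most like Control venetoclax 1 (Pearson r = 0.990) and less like its own replicate (r = 0.966); the same held for Control venetoclax 1 (r = 0.965 with its own replicate). Results on these 2 conditions are therefore also given without each of these libraries.

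**Figure D1:**
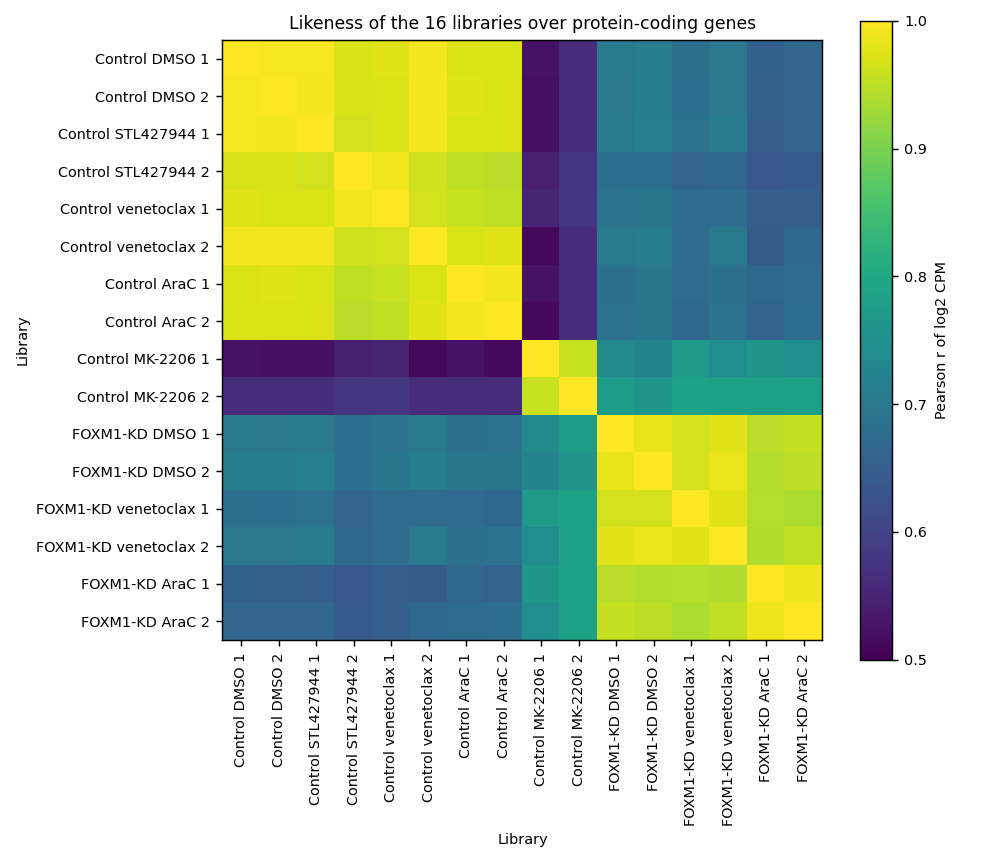
Pearson correlation of log2 CPM between the 16 libraries over 12583 protein-coding genes, with libraries on both axes and the correlation as color. The 8 control-cell libraries without MK-2206 form 1 block (0.948 to 0.995), the 6 FOXM1-KD libraries another (0.938 to 0.987), and the MK-2206 libraries correlate at 0.511 to 0.579 with the former and 0.726 to 0.786 with the latter.

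The label check on the targeted gene and on cell markers gave the following values. FOXM1 was lowest after MK-2206, at 20.7 ± 1.4 CPM (SD, n = 2; 152 and 171 counts, against 740 to 2161 in the 6 FOXM1-KD libraries). FOXM1 stood at 139.1 ± 1.3 CPM (SD, n = 2) in Control DMSO and 65.3 ± 23.3 in FOXM1-KD DMSO, a log2 fold change of −1.08 ± 0.28 (SE, adjusted p = 0.056). Under AraC the difference in FOXM1 was smaller and under the 2-fold limit (117.5 ± 5.4 against 168.5 ± 17.4 CPM), and under venetoclax FOXM1 was at 53.8 ± 4.6 against 124.0 ± 4.0 CPM. CD34, the stem and progenitor antigen that defines KG-1, had 12483 to 28951 counts in the 8 control-cell libraries without MK-2206, 7 and 18 counts after MK-2206 and 0 to 4 counts in the 6 FOXM1-KD libraries. MPO, the granulocyte peroxidase, ran the other way, with 5 to 242, 3888 and 3424, and 28881 to 155753 counts. ITGAM, an integrin of myeloid cells, had 325 to 3723 counts in the first set, 28 and 24 after MK-2206 and 10 to 386 in FOXM1-KD libraries. KIT had 313 to 956 counts in the first set, 6 and 8 after MK-2206 and 1 to 20 in FOXM1-KD libraries. The summed level of 9 blood and myeloid markers was 1223 to 1944 CPM, 587 to 705 CPM and 3725 to 12396 CPM in these sets. In FOXM1-KD DMSO 4 of the 9 were called higher (CD33, MPO, LYZ and CD14) and 3 lower (CD34, KIT and ITGAM), beside 13.4% and 16.2% of protein-coding genes. CD14 was at very low levels, 0.37 to 0.79 CPM there against 0 to 0.11 CPM in Control DMSO. MS4A1 was at 0 counts in all 3 sets, and the 6 T and B lymphocyte markers together reached at most 16.0 CPM. Of 6 erythroid and megakaryocyte markers, 5 had at most 3 counts in any library (HBB and PF4 were at 0), ITGA2B was the exception, and the list summed to at most 62.4 CPM. The 6 epithelial and stromal markers together stayed at or below 0.684 CPM except after MK-2206 (4.57 and 4.62 CPM). CD34, a defining marker of the line, was thus at or near 0 in every MK-2206 and FOXM1-KD library, and the part of these marker differences in the results on MK-2206 and FOXM1-KD was not tested. Whether these libraries hold the labelled line was not tested either, so each fold on MK-2206 or FOXM1-KD compares the libraries as labelled.

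All positions are from GRCh38 with GENCODE release 44. CFLAR (chromosome 2, 201116154 to 201176687, plus strand), CASP10 (201182872 to 201229428) and CASP8 (201233443 to 201361836) follow each other on 1 strand with 6184 and 4014 bases between them. FAS is on chromosome 10 (88953813 to 89029605, plus strand), FADD on chromosome 11 (70203296 to 70207390, plus strand) and TNFRSF1A on chromosome 12 (6328757 to 6342114, minus strand). FAS shares its locus with STAMBPL1 on its own strand and with ACTA2 on the other, CASP8 overlaps FLACC1, and CFLAR overlaps CFLAR-AS1. Reads in shared exons could have been left out or given to the other gene, and how the counting treated them is not given. Of the 8 genes, 5 had RefSeq promoter windows (GRCh38.p14, 12 windows of the 250 bases before a start site). These windows were searched on both strands for TAAACA, a core recognized by forkhead factors, because FOXM1 is the perturbed gene, and 2 of 12 held it against 11.0% of all 35116 windows. The matches follow with 12 flanking bases on each side and the core in capitals. They lie 128 bases before an internal CFLAR start site (chr2:201132635-201132664, plus strand) and 21 bases before an internal CASP8 start site (chr2:201257996-201258025, plus strand).
CFLAR: ctgagagcttgtTAAACAgagaaggctact
CASP8: catctgttccttTAAACAggaaacatttct
A match describes these letters only, and binding was not measured.

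TNFRSF10B lies on chromosome 8 (23020133 to 23069031, minus strand) and overlaps RHOBTB2 on the other strand, and TNFRSF10A lies 121420 bases further on (23190452 to 23225102, minus strand). Levels can be compared between genes only per length. Per kilobase of the MANE Select transcript, the representative transcript of each gene, TNFRSF1A was the highest of the 8 in Control DMSO (81.6 CPM per kb), followed by CASP8 (24.3), TNFRSF10A (18.2), CFLAR (16.5) and FADD (16.0). CASP10 (3.83), TNFRSF10B (3.01) and FAS (1.91) were the lowest. Per kilobase of all annotated exons, an alternative added after seeing the data, TNFRSF1A stayed highest and FAS lowest, while CASP8 went from rank 2 to rank 5. In FOXM1-KD DMSO, TNFRSF10B had rank 3 at 19.3 CPM per kb of the MANE Select transcript.

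**Figure D2:**
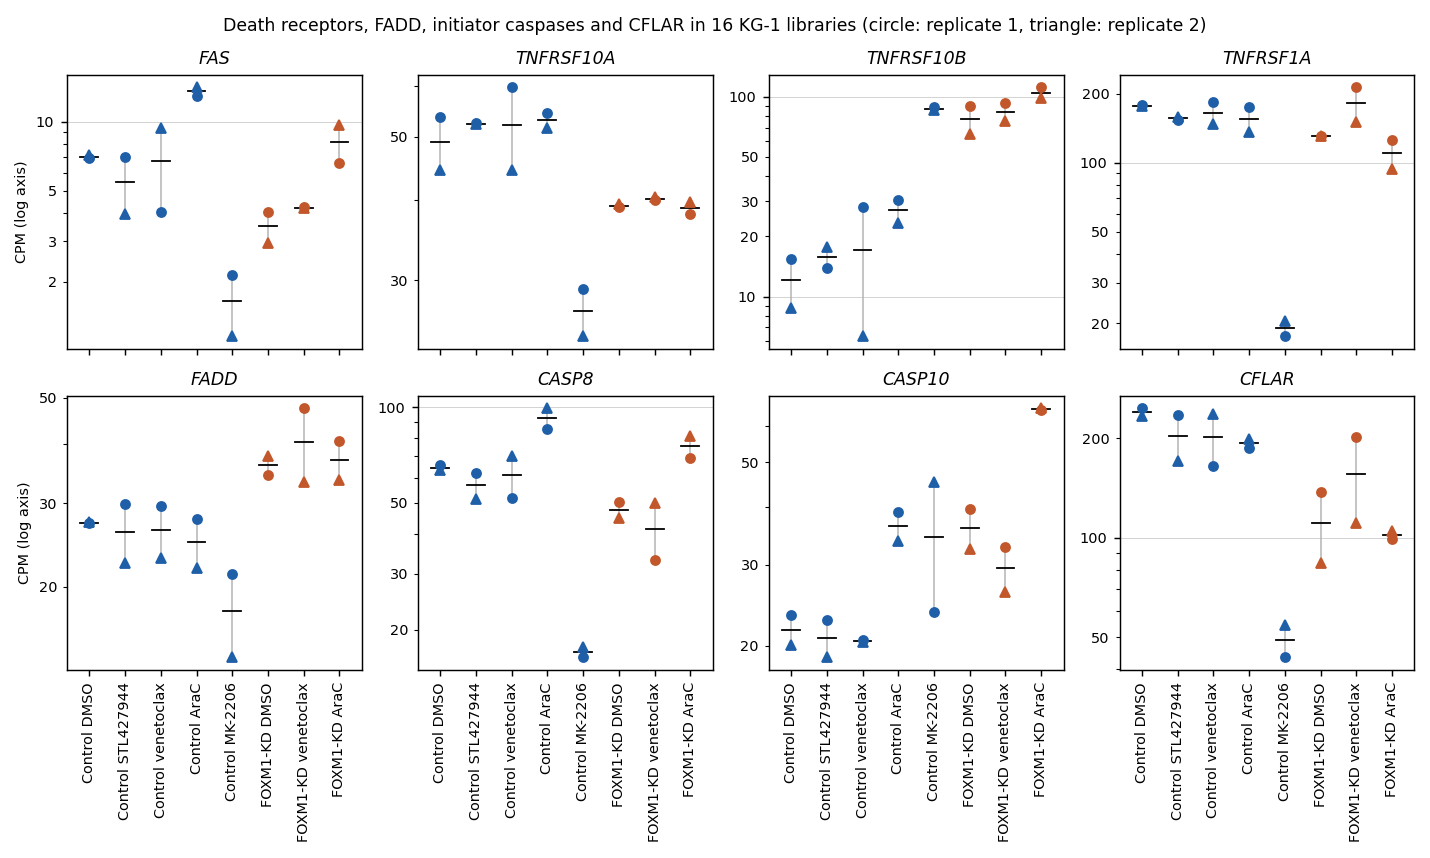
CPM (log axis, scaled by TMM) of the 8 genes in each of the 8 conditions; points are the 2 libraries, bars their mean, blue control cells and orange FOXM1-KD cells. TNFRSF10B is above 64 CPM in all libraries of MK-2206 and FOXM1-KD and below 31 CPM in the others, while TNFRSF1A is under 21 CPM only after MK-2206.

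TNFRSF10B, which encodes the TRAIL receptor DR5, showed the widest contrast between control and FOXM1-KD cells among the 8 genes. It was at 15.4 and 8.74 CPM in the Control DMSO libraries, 13.9 and 17.7 CPM after STL427944, 28.0 and 6.34 CPM after venetoclax and 30.5 and 23.4 CPM after AraC. After MK-2206 it stood at 88.4 and 85.2 CPM. In FOXM1-KD cells it was at 89.3 and 65.0 CPM in DMSO, 92.7 and 75.7 CPM with venetoclax and 111.7 and 97.8 CPM with AraC. The 8 high libraries did not overlap the 8 low ones, and the share of all genes that separate these libraries likewise was not counted. Counts of CD34, KIT, MPO, TNF, TNFSF10 and TNFRSF25 separated the same libraries, so the split is not particular to TNFRSF10B. Replicates in control cells were uneven, with 280 and 159 counts in DMSO and 435 and 130 counts in venetoclax. By mean level the order was FOXM1-KD AraC, MK-2206, FOXM1-KD venetoclax, FOXM1-KD DMSO, Control AraC, Control venetoclax, Control STL427944 and Control DMSO. Within the order, the libraries of MK-2206 and of FOXM1-KD with venetoclax or DMSO overlapped, as did those of Control AraC with Control venetoclax, and the remaining neighbors among control cells overlapped too.

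TNFRSF10B was tested in each comparison with edgeR's quasi-likelihood test over all genes with at least 1 count, and a call needed a change of at least 2-fold together with a Benjamini-Hochberg adjusted p below 0.1. FOXM1-KD cells had 6.44-fold more TNFRSF10B than control cells in DMSO (log2 fold change 2.69 ± 0.34 SE, adjusted p = 0.00935), 3.78-fold more under AraC (1.92 ± 0.22, adjusted p = 1.17e-16) and 4.92-fold more under venetoclax (2.30 ± 0.42, adjusted p = 6.27e-07). It was the 1 gene of the 8 called in all 3 of these comparisons. The call held without any 1 library, with log2 fold changes of 2.33 to 3.15 in DMSO, 1.76 to 2.14 under AraC and 1.58 to 3.72 under venetoclax. The lowest and highest of the last range are the values without Control venetoclax 2 and without Control venetoclax 1. In control cells TNFRSF10B was 7.56-fold higher after 24 h of MK-2206 than after 48 h of DMSO (log2 fold change 2.92 ± 0.31, adjusted p = 2.35e-20). These comparisons of MK-2206 and of FOXM1-KD in DMSO share the Control DMSO libraries.

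The neighboring TRAIL receptor gene TNFRSF10A, which encodes DR4, varied least of the 8 genes between conditions, with 1.97-fold between the highest and the lowest mean. It was at 53.7 and 44.5 CPM in Control DMSO, 38.9 and 39.3 CPM in FOXM1-KD DMSO and 29.1 and 24.6 CPM after MK-2206. The difference after MK-2206 did not reach 2-fold (log2 fold change −0.80 ± 0.29, adjusted p = 0.015). With scaling by total counts it did (−1.01, adjusted p = 0.00283). The 6 FOXM1-KD libraries lay between 38.0 and 40.4 CPM and the 8 control-cell libraries without MK-2206 between 44.5 and 59.7 CPM. Over protein-coding genes these sets of libraries correlated at only 0.636 to 0.716, and the share of genes that separate them likewise was not counted. None of the 3 comparisons of FOXM1-KD with control cells was called for TNFRSF10A (log2 fold changes −0.32 ± 0.14 in DMSO, −0.49 ± 0.23 under AraC and −0.38 ± 0.40 under venetoclax).

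FAS, the receptor of FAS ligand, had the lowest level per kilobase of the 8 genes in Control DMSO. It was at 6.96 and 7.14 CPM in Control DMSO, 13.0 and 14.2 CPM after AraC and 2.14 and 1.16 CPM after MK-2206. These last values rest on 15 and 10 counts. In FOXM1-KD cells it was at 4.02 and 2.95 CPM in DMSO, 4.24 and 4.18 CPM with venetoclax and 6.61 and 9.69 CPM with AraC. FAS fell after MK-2206 by 2.05 ± 0.45 on the log2 scale (SE, adjusted p = 1.95e-05). It fell by 1.01 ± 0.23 in FOXM1-KD DMSO (adjusted p = 0.0399), just past the 2-fold limit. That call was lost without Control DMSO 1 (log2 fold change −1.02, adjusted p = 0.22), Control DMSO 2 (−0.99, adjusted p = 0.23) or FOXM1-KD DMSO 2 (−0.81, adjusted p = 0.058), and with the filterByExpr filter on low counts, where the change was just under 2-fold (adjusted p = 0.027). Control STL427944 2 and Control venetoclax 1 had 3.95 and 4.05 CPM of FAS against 7.01 and 9.42 CPM in their replicates.

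TNFRSF1A, the receptor of TNF, was the most abundant of the receptors per length. It stood at 178.0 and 176.4 CPM in Control DMSO and at 17.6 and 20.5 CPM after MK-2206, where it fell by 3.15 ± 0.30 on the log2 scale (8.86-fold lower, adjusted p = 1.20e-24). All other libraries held 94.0 to 213.9 CPM. FOXM1-KD cells in DMSO had 130.7 and 131.0 CPM, a log2 fold change of −0.43 ± 0.09 with adjusted p = 0.0345 but under 2-fold. Under AraC the log2 fold change of FOXM1-KD against control cells was −0.54 ± 0.20 (adjusted p = 0.018), and under venetoclax it was 0.14 ± 0.37 (adjusted p = 0.81).

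FADD, the adaptor that links receptors to the initiator caspases, was not called in any of the 9 comparisons. It was at 27.2 and 27.3 CPM in Control DMSO, 34.4 and 37.8 CPM in FOXM1-KD DMSO and 21.3 and 14.2 CPM after MK-2206. The 6 FOXM1-KD libraries held 33.3 to 47.6 CPM and the 8 control-cell libraries without MK-2206 held 21.9 to 29.8 CPM. Over protein-coding genes these sets of libraries correlated at only 0.636 to 0.716 with each other. The share of genes that separate them as FADD does was not counted. The log2 fold changes of FOXM1-KD against control cells were 0.42 ± 0.12 in DMSO (adjusted p = 0.0757), 0.54 ± 0.23 under AraC (adjusted p = 0.0548) and 0.62 ± 0.42 under venetoclax (adjusted p = 0.35).

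The initiator caspases took different courses. CASP8 was at 65.7 and 63.5 CPM in Control DMSO, 85.1 and 99.3 CPM after AraC and 16.4 and 17.7 CPM after MK-2206, where it fell by 1.85 ± 0.30 on the log2 scale (3.60-fold lower, adjusted p = 4.72e-09). CASP8 in FOXM1-KD cells was at 50.4 and 44.8 CPM in DMSO, 33.1 and 49.9 CPM with venetoclax and 69.4 and 81.2 CPM with AraC. None of its differences between FOXM1-KD and control cells reached 2-fold (log2 fold changes −0.43 ± 0.11, −0.33 ± 0.21 and −0.56 ± 0.40 in DMSO, AraC and venetoclax).

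CASP10, which can also be recruited by FADD, was not called lower in any comparison. It was at 23.3 and 20.1 CPM in Control DMSO, 39.1 and 33.7 CPM after AraC, 39.6 and 32.4 CPM in FOXM1-KD DMSO and 65.0 and 65.5 CPM in FOXM1-KD AraC. The FOXM1-KD AraC libraries lay above all others, and the share of genes with that pattern was not counted. After MK-2206 its libraries stood apart from each other, at 23.7 and 45.3 CPM. No comparison of CASP10 reached 2-fold, with log2 fold changes of 0.74 ± 0.16 in FOXM1-KD DMSO (adjusted p = 0.0375), 0.80 ± 0.22 for FOXM1-KD under AraC (adjusted p = 0.00124) and 0.75 ± 0.29 after MK-2206 (adjusted p = 0.0265). Without Control MK-2206 1 the last value was 1.11 (adjusted p = 0.032) and without Control MK-2206 2 it was 0.16.

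CFLAR, the inhibitor, was highest in Control DMSO, at 247.0 and 234.3 CPM. It was at 137.4 and 84.1 CPM in FOXM1-KD DMSO, 99.3 and 105.0 CPM in FOXM1-KD AraC, 201.8 and 110.8 CPM in FOXM1-KD venetoclax and 43.6 and 54.4 CPM after MK-2206. The FOXM1-KD libraries with venetoclax overlapped those of control cells with venetoclax (165.4 and 237.5 CPM), while those with DMSO or AraC lay below their control libraries. CFLAR fell by 2.22 ± 0.28 on the log2 scale after MK-2206 (4.67-fold lower, adjusted p = 1.40e-14) and by 1.11 ± 0.26 in FOXM1-KD DMSO (2.16-fold lower, adjusted p = 0.0409). The latter call was lost without Control DMSO 1 (log2 fold change −1.07, adjusted p = 0.18), Control DMSO 2 (−1.15, adjusted p = 0.16) or FOXM1-KD DMSO 2 (−0.81, under 2-fold). Under AraC, CFLAR was at −0.96 ± 0.20 in FOXM1-KD against control cells, under 2-fold (adjusted p = 4.50e-06), and under venetoclax at −0.37 ± 0.37 (adjusted p = 0.60).

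**Figure D3:**
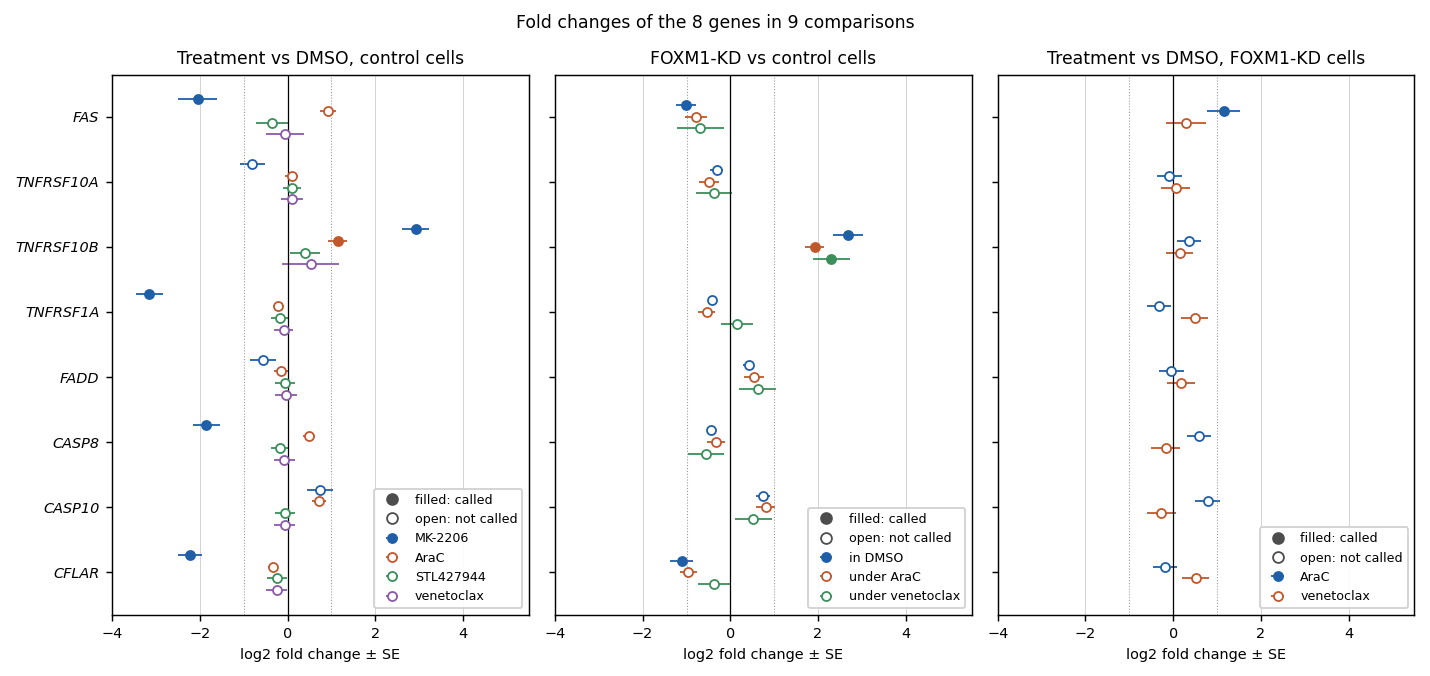
Log2 fold changes with SE of the 8 genes from edgeR in 9 comparisons, grouped into treatments of control cells, FOXM1-KD against control cells and treatments of FOXM1-KD cells; filled points are called genes and dotted lines mark 2-fold. TNFRSF10B is the 1 gene on the higher side in MK-2206 and in all 3 FOXM1-KD comparisons that is called in each, and TNFRSF1A, CFLAR, FAS and CASP8 lie at −3.15 to −1.85 after MK-2206.

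After MK-2206, 5 of the 8 genes were called: TNFRSF10B rose and FAS, TNFRSF1A, CASP8 and CFLAR fell. Among protein-coding genes 30.2% were called higher and 24.3% lower in this comparison, so a call in itself was common. Among those with a mean of at least 10 counts the shares were 25.6% and 33.7%. The median log2 fold change was −1.33 over the 8 genes and −0.29 over protein-coding genes with a mean of at least 10 counts. With scaling by total counts the latter median moved to −0.51, and relative to either median TNFRSF10B stayed higher and the 4 genes stayed lower. In FOXM1-KD DMSO, 3 of the 8 were called (TNFRSF10B higher, FAS and CFLAR lower), against 13.4% of protein-coding genes called higher and 16.2% lower. Under AraC and under venetoclax FOXM1-KD differed from control cells in 1 of 8, TNFRSF10B, with 17.4% of protein-coding genes called higher and 16.3% lower under AraC, and 14.2% higher and 16.2% lower under venetoclax.

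AraC raised TNFRSF10B 2.21-fold over DMSO in control cells (log2 fold change 1.14 ± 0.23, adjusted p = 0.00238), the 1 call among the 8, where 6.19% of protein-coding genes were called higher and 1.97% lower. FAS (0.93 ± 0.18, adjusted p = 0.00235), CASP10 (0.73 ± 0.16, adjusted p = 0.00553) and CASP8 (0.50 ± 0.14, adjusted p = 0.0213) were higher in both AraC libraries but under 2-fold, and CFLAR was at −0.33 ± 0.12 (adjusted p = 0.070). The TNFRSF10B call was lost without Control AraC 1 (0.94, adjusted p = 0.32), Control AraC 2 (1.35, adjusted p = 0.25) or Control DMSO 2 (0.79, under 2-fold). Without either AraC library 0 protein-coding genes were called, against 1232 with all 4 libraries. In FOXM1-KD cells AraC raised FAS 2.22-fold (1.15 ± 0.37, adjusted p = 0.0203), the 1 call of 8, against 11.9% of protein-coding genes called higher and 2.44% lower. This call was lost without FOXM1-KD AraC 1 (1.41), FOXM1-KD AraC 2 (0.84) or FOXM1-KD DMSO 2 (0.95). Leaving out either AraC library removed the calls of the other protein-coding genes as well, as in control cells. Those losses are therefore not particular to FAS. CASP10 was at 0.78 ± 0.28 (adjusted p = 0.043), CASP8 at 0.59 ± 0.28 (adjusted p = 0.17) and TNFRSF10B at 0.37 ± 0.27 (adjusted p = 0.48).

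The difference between the AraC responses of FOXM1-KD and control cells was tested directly, and none of the 8 genes was called, where 5.47% of protein-coding genes were called higher and 1.71% lower. By unadjusted p below 0.05, 1 gene of 8 passed, and DESeq2 called 0. For TNFRSF10B the difference was −0.69 ± 0.30 (adjusted p = 0.22). It passed, as lower, without Control DMSO 1 (−1.16, adjusted p = 0.093) or FOXM1-KD DMSO 2 (−1.04, adjusted p = 0.014). For FAS the difference was 0.30 ± 0.41 (adjusted p = 1.00).

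STL427944 and venetoclax left the 8 genes without a call. With STL427944 the log2 fold changes ran from −0.35 ± 0.37 (FAS) to 0.40 ± 0.34 (TNFRSF10B), and 0% of protein-coding genes were called in either direction by edgeR. With an unadjusted p below 0.05 there were 0 of the 8 genes and 281 of all 22672 genes tested, and DESeq2 called 1 protein-coding gene and 0 of the 8. Without Control STL427944 1, which leaves Control STL427944 2 alone, 901 protein-coding genes were called, none of them among the 8. Without Control STL427944 2, 0 were called, and TNFRSF10B was at 0.04 to 0.85 across the libraries left out in turn. Venetoclax in control cells gave −0.25 ± 0.23 (CFLAR) to 0.53 ± 0.64 (TNFRSF10B), with 0% of protein-coding genes called by edgeR and 0 by DESeq2, 188 of 22593 genes at an unadjusted p below 0.05 and 0 of the 8. TNFRSF10B was at −0.93 without Control venetoclax 1 and at 1.25 without Control venetoclax 2. In FOXM1-KD cells venetoclax gave −0.27 ± 0.33 (CASP10) to 0.52 ± 0.31 (CFLAR), 0 of 8 called (0 with an unadjusted p below 0.05 and 0 by DESeq2), against 2.05% of protein-coding genes called higher and 0.791% lower. The difference between the venetoclax responses of FOXM1-KD and control cells was called for 0 of 8 (1 with an unadjusted p below 0.05, CFLAR at 0.77 ± 0.39, and 0 by DESeq2), against 0.736% higher and 0.368% lower.

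Across the 8 condition means of log2 CPM, FAS and CASP8 had the highest correlation of any pair (Pearson r = 0.96), followed by TNFRSF10A and CFLAR (0.96). TNFRSF10B and CFLAR ran opposite to each other (r = −0.80), and so did TNFRSF10B and TNFRSF10A (−0.78). These are descriptions over 8 conditions that differ most between the MK-2206, FOXM1-KD and remaining control libraries. The 3 protein-coding genes most like TNFRSF10B among 12582 were ENAH, LPL and SERPINB8 (r = 0.996 to 0.997), those most like FAS were AKIP1, SAP130 and NUP58 (0.986 to 0.991), and those most like CASP8 were PXMP2, ITM2C and CENPQ (0.995 to 0.997). For CFLAR they were USP47, MLC1 and MED22 (0.993 to 0.996), for TNFRSF10A FAM222B, ZNF816 and SREK1 (0.995 to 0.997), and for TNFRSF1A ELAVL1, XYLT2 and TRAPPC2L (0.997 to 0.998). FADD was most like RNPEP, INO80E and GTF3C5 (0.995 to 0.999) and CASP10 most like RASSF5, RAG1 and GNGT2 (0.980 to 0.992).

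Of the ligand genes, TNFSF10 and TNF differed in opposite directions between control cells and the MK-2206 and FOXM1-KD libraries. TNFSF10, which encodes TRAIL, the ligand of TNFRSF10A and TNFRSF10B, had 1161 to 2873 counts in the control-cell libraries without MK-2206, 0 and 11 counts after MK-2206 and 46 to 210 counts in FOXM1-KD cells. TNFSF10 changed by −6.94 ± 0.43 on the log2 scale with MK-2206 (adjusted p = 7.38e-57) and by −4.93 ± 0.24 in FOXM1-KD DMSO (adjusted p = 0.00155). The value with MK-2206 was −6.10 without Control MK-2206 1 and −13.35 without Control MK-2206 2, when it rests on 0 counts and depends on the prior count of the fit. TNF, the ligand of TNFRSF1A, had 0 to 7 counts in the control-cell libraries without MK-2206, 1621 and 2277 after MK-2206 and 199 to 3584 in FOXM1-KD cells. TNF was called higher after MK-2206 and in all 3 comparisons of FOXM1-KD with control cells, and no fold is given against counts of 0 and 1 in Control DMSO. FASLG, the ligand of FAS, had at most 2 counts in any library. LTA had 1 to 44 counts and TNFSF15 0 to 17 counts.

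Among decoy and other receptors, TNFRSF10D, a TRAIL receptor with a truncated death domain, was at 1.43 and 0.38 CPM in Control DMSO, 5.84 and 5.99 CPM after AraC, 56.7 and 64.1 CPM after MK-2206 and 17.1 and 16.9 CPM in FOXM1-KD DMSO. It was called higher in each of these conditions, by 2.68 ± 0.36 (AraC), 6.12 ± 0.39 (MK-2206) and 4.23 ± 0.53 (FOXM1-KD DMSO) on the log2 scale, with adjusted p = 0.000101, 1.81e-54 and 0.00901. With 26 and 7 counts in Control DMSO, the values moved to 3.91, 7.32 and 5.46 without Control DMSO 1 and to 2.03, 5.47 and 3.58 without Control DMSO 2. TNFRSF10C, a TRAIL receptor without a death domain, went the other way with the knockdown. Its counts were 27 and 35 in Control DMSO, 149 and 119 in Control AraC, 5 and 0 in FOXM1-KD DMSO and 3 and 6 in FOXM1-KD AraC. It was called lower in FOXM1-KD against control cells in DMSO (log2 fold change −3.61 ± 0.91, adjusted p = 0.0519), under AraC (−4.74 ± 0.41, adjusted p = 2.57e-29) and under venetoclax (−2.84 ± 0.85, adjusted p = 0.00538). The call in DMSO was lost without Control DMSO 1 or Control DMSO 2 and that under venetoclax without FOXM1-KD venetoclax 2, and leaving out 1 library moved these values to between −7.99 and −2.66 and between −7.69 and −1.81. TNFRSF25, the death receptor DR3, had 673 to 1081 counts in the control-cell libraries without MK-2206, 10 and 14 with MK-2206 and none in FOXM1-KD DMSO, which makes it at least 262-fold lower there (against a floor of 3 counts per library). TNFRSF1B, the second TNF receptor, rose in FOXM1-KD DMSO (log2 fold change 1.51 ± 0.22, adjusted p = 0.0132) and after AraC (1.10 ± 0.16, adjusted p = 0.000233) and fell after MK-2206 (−2.44 ± 0.33, adjusted p = 1.25e-12). The AraC calls of TNFRSF10D and TNFRSF1B were lost when either AraC library was left out, that of TNFRSF1B also without Control DMSO 2. The call of TNFRSF1B in FOXM1-KD DMSO was lost without Control DMSO 2 (1.38, adjusted p = 0.10). Of the 6 decoy and other receptors tested in FOXM1-KD DMSO, 3 were called higher (TNFRSF10D, TNFRSF1B and TNFRSF21) and 2 lower (TNFRSF10C and TNFRSF25). Beside these, 13.4% of protein-coding genes were called higher and 16.2% lower. The call of TNFRSF21 was lost without Control DMSO 1, Control DMSO 2 or FOXM1-KD DMSO 2. Leaving out 1 library moved its log2 fold change to between 0.91 and 1.74.

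**Figure D4:**
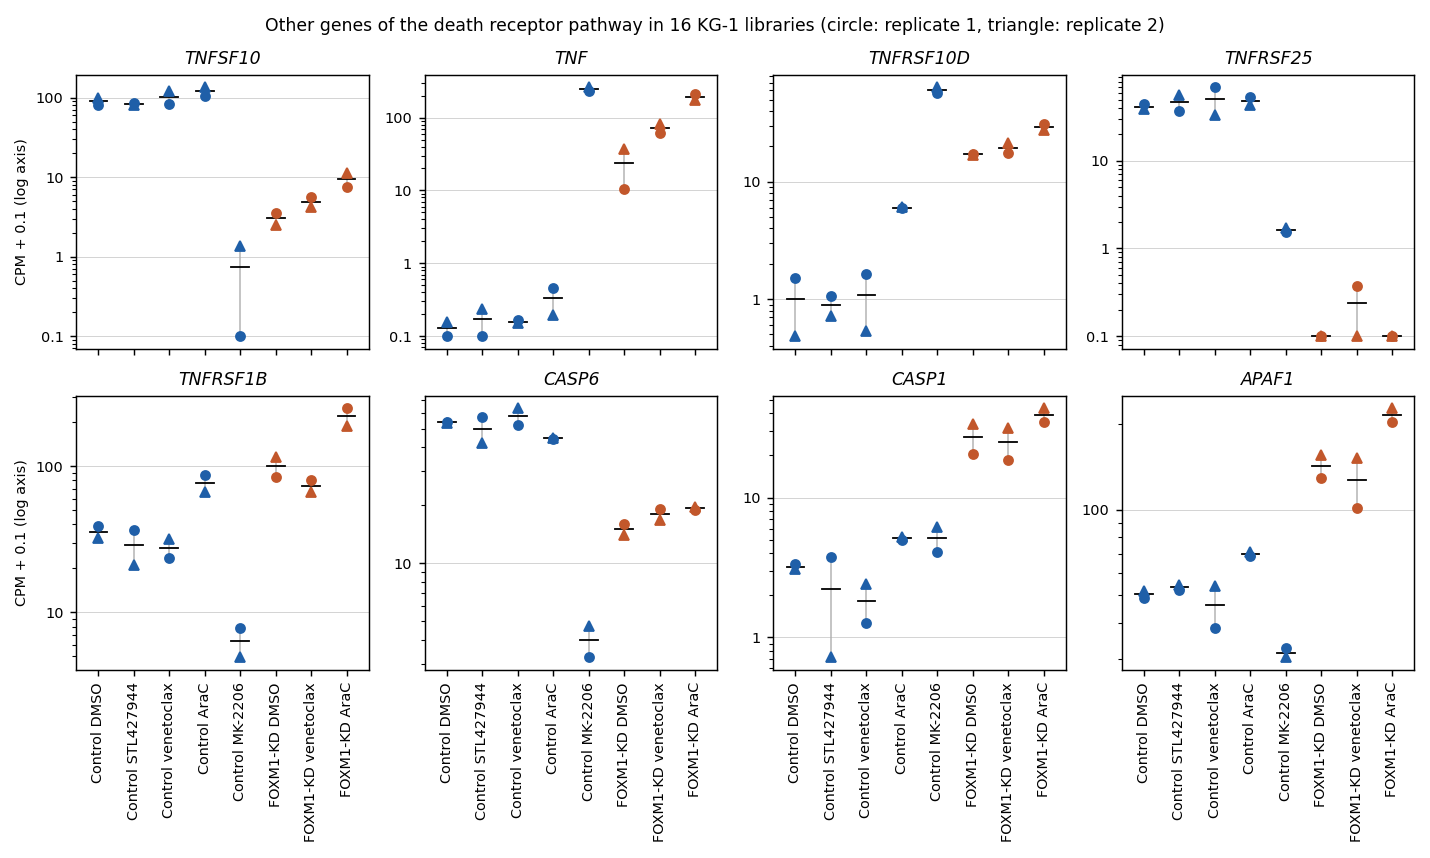
CPM plus 0.1 (log axis) of 8 other genes of the pathway in the 8 conditions; points are the 2 libraries and bars their mean, with blue for control and orange for FOXM1-KD cells. TNFSF10 and TNFRSF25 are high in control cells without MK-2206 and low elsewhere, TNF and TNFRSF10D show the reverse, and CASP1 and APAF1 are high in FOXM1-KD cells.

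Downstream of the initiator caspases, CASP6, an effector caspase, was at 54.1 and 53.4 CPM in Control DMSO, 15.8 and 13.9 CPM in FOXM1-KD DMSO and 3.14 and 4.62 CPM after MK-2206. Its log2 fold change was −1.84 ± 0.13 in FOXM1-KD DMSO (adjusted p = 0.00259) and −3.70 ± 0.35 after MK-2206 (adjusted p = 1.62e-25). APAF1, the scaffold of the apoptosome, rose 2.84-fold in FOXM1-KD DMSO (SE of the log2 fold change 0.14, adjusted p = 0.00472), and CASP1, the inflammatory caspase, rose there by 3.13 ± 0.34 on the log2 scale (adjusted p = 0.0062). After MK-2206 neither was called (APAF1 −0.61 ± 0.29, CASP1 0.77 ± 0.41). DIABLO, the mitochondrial antagonist of the IAP proteins, was higher after MK-2206 (2.58 ± 0.31, adjusted p = 3.14e-16), and so was TNFAIP3, an ubiquitin-editing inhibitor of TNF receptor signaling (2.47 ± 0.29, adjusted p = 6.15e-17).

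Over the whole of 40 further pathway genes (ligands, decoys, complex proteins, effector and mitochondrial proteins, other caspases and necroptosis genes), 37 were tested after MK-2206, with 10 called higher and 9 lower and a median log2 fold change of 0.19, beside 30.2% and 24.3% of protein-coding genes. In FOXM1-KD DMSO 38 were tested, with 9 higher and 7 lower and a median of 0.04, beside 13.4% and 16.2%. These 16 calls became 10 without Control DMSO 1 and 9 without Control DMSO 2. Under AraC 8 of 39 were called higher and 4 lower in FOXM1-KD against control cells (17.4% and 16.3% of protein-coding genes), and under venetoclax 9 of 36 higher and 8 lower (14.2% and 16.2%). The 17 calls under venetoclax became 10 without FOXM1-KD venetoclax 2. AraC raised 4 of 38 in control cells (TNFSF15, TNFRSF10C, TNFRSF10D and TNFRSF1B), beside 6.19% of protein-coding genes called higher. These 4 calls became 0 without Control AraC 1 or Control AraC 2, 2 in the fit over all 16 libraries and 8 with total-count scaling. In FOXM1-KD cells AraC raised 9 of 37, beside 11.9% of protein-coding genes. The 9 were TNFSF10, TNF, LTA, TNFSF15, TNFRSF1B, BIRC3, TNFAIP3, PEA15 and RIPK3, and none of these calls held when either AraC library was left out. That loss was shared by the other protein-coding genes and is not particular to the 9.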

How the data were processed

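RNA was extracted from KG-1 cells by the study and sequenced as 16 libraries. The authors deposited raw read counts per gene. The submitters' processing notes name STAR, featureCounts and the hg38 genome; their versions and the strand setting of the counting are not given in the sources used here. The labels name a TruSeq stranded kit, while the study's methods name a stranded CORALL kit that adds unique molecular identifiers to the cDNA; whether reads were collapsed by identifier before counting is not given in the sources used here, so counts may include PCR copies. Gene names and biotypes were taken from GENCODE release 44 by Ensembl identifier (43214 of 43836 genes matched). Groups came from the sample labels, with 2 libraries per condition. Total counts per library ranged from 7351755 to 21362546.

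Counts were analyzed in R 4.3.3 with edgeR 4.0.16: TMM scaling, the quasi-likelihood test and Benjamini-Hochberg adjustment over all genes with at least 1 count, fitted on the 4 libraries of a comparison (8 for a difference between responses). The limits for a call, 2-fold or more with an adjusted p below 0.1, follow the study's methods. SE is the size of the log2 fold change divided by the square root of F. CPM values were scaled over all 16 libraries and fold changes within each comparison, so their ratios differ slightly. Where all libraries of a group had 0 counts, a floor of 3 counts per library was used. The 8 genes, the pathway and marker lists and the tests were chosen with earlier results of these data known. Named genes are the 8, the annotated genes that overlap them, genes of those lists, FOXM1, and for each of the 8 the 3 protein-coding genes with the highest correlation over condition means. No sequence-level data were used beyond RefSeq promoter windows.

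The labels number the replicates of 5 of the 8 conditions. Between those conditions the deviations of replicate 1 from replicate 2 correlated at 0.415 to 0.689 over 11818 genes in all 10 pairs of conditions, so the numbers were taken to pair the libraries, and a fit with the replicate block was run for the comparisons of FOXM1-KD with control cells under AraC and under venetoclax. Replicates of each of the 8 conditions were further apart than counting noise (chi-square per degree of freedom 8.58 to 103.3). On simulated counts 98% of 200 changed genes were recovered for FOXM1-KD against control in DMSO (22360 genes, 0.51% false calls) and 99% for the difference between AraC responses (24984 genes, 8.76% false calls). The simulation gave every gene the same fixed spread, not that of these replicates. All planted changes were well beyond 2-fold and in genes above a minimum count. The rates therefore check the fit and do not describe calls near 2-fold in these data. Alternatives were total-count scaling, DESeq2 size factors, DESeq2 1.42.0, filterByExpr, an adjusted p below 0.05, 1 fit over all 16 libraries, and leaving out each library.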

Additional observations from a re-analysis of the deposited data

Results flagged for a closer look

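No condition had enough libraries for a test of single outlying libraries. Of the 8 genes none was called for a difference between the AraC or the venetoclax responses of FOXM1-KD and control cells. Among the further pathway genes, 6 of 39 tested (4 higher, 2 lower) were called for the difference between the AraC responses by edgeR, beside 5.47% of protein-coding genes called higher and 1.71% lower. The response in FOXM1-KD cells was higher by 1.26 ± 0.33 (log2, SE, adjusted p = 0.00429) for TNFSF10, by 3.72 ± 0.80 (adjusted p = 0.000228) for LTA, by 1.84 ± 0.38 (adjusted p = 9.84e-05) for BIRC3 and by 1.37 ± 0.43 (adjusted p = 0.0303) for RIPK3. It was lower for TNFRSF10D (−1.89 ± 0.43, adjusted p = 0.000605) and CYCS (−1.03 ± 0.26, adjusted p = 0.00393). LTA rested on 1 to 37 counts in the libraries compared, and TNFRSF10D on 26 and 7 counts in Control DMSO. TNFSF10 had 65 and 46 counts in FOXM1-KD DMSO and 127 and 210 in FOXM1-KD AraC. The 6 calls became 3 in the fit over all 16 libraries, 1 without Control AraC 1, 0 without Control AraC 2, 2 without Control DMSO 2, 3 without FOXM1-KD AraC 1, 9 without FOXM1-KD DMSO 1 and 3 without FOXM1-KD DMSO 2.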

How the results depend on the processing

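The counts of called genes among the 8 after MK-2206 (5 to 6), for FOXM1-KD under venetoclax (1) and with STL427944 or venetoclax (0) stayed within 1.5 times the reported count under every alternative. In FOXM1-KD DMSO, leaving out 1 library gave 1 to 3 calls. For FOXM1-KD under AraC the fit over all 16 libraries gave 2 calls (CFLAR added) and leaving out 1 library 1 to 3. For AraC in control cells total-count scaling gave 2 (FAS added), the fit over all 16 libraries 0, and leaving out 1 library 0 to 1. For AraC in FOXM1-KD cells the fit over all 16 libraries gave 0 and leaving out 1 library 0 to 1. For the difference between AraC responses leaving out 1 library gave 0 to 1. With the replicate block, TNFRSF10B was the 1 call of 8 under AraC (1.93 ± 0.09) and under venetoclax (2.61 ± 0.23), so the pairing changed no call; no paired analysis was possible for comparisons with DMSO because its libraries carry no number.

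Over single genes of the 8 and of the pathway lists, 820 values from alternatives that kept all libraries matched the direction and call reported, 6 gained and 19 lost a call and 2 turned direction; with 1 library left out these were 435, 6, 90 and 13. Directions turned only for values that were not called. With total-count scaling these were TNFRSF10A (0.077) and FADD (0.13) for AraC in FOXM1-KD cells. Leaving out 1 library gave −0.33 to 0.036 for FADD and −0.037 to 0.24 for TNFRSF10A with AraC in control cells, and −0.17 to 0.079 for FADD and −0.50 to 0.19 for CFLAR with AraC in FOXM1-KD cells. For FOXM1-KD under venetoclax it gave −1.17 to 0.046 for FAS, −0.13 to 0.37 for TNFRSF1A and −0.86 to 0.0028 for CFLAR. For TNFRSF10B it gave −0.93 to 1.25 with venetoclax in control cells, −0.081 to 0.38 in FOXM1-KD cells and −1.09 to 1.06 for the difference between the venetoclax responses. The cause of these changes was not tested. With 2 libraries per condition, leaving out 1 assumes that the lone library varies like the others. FAS after MK-2206 rests on 15 and 10 counts. Protein-coding genes called fell from 1232 to 550 for AraC in control cells and from 1177 to 427 for the difference between AraC responses in the fit over all 16 libraries (773 with filterByExpr), from 445 to 271 for venetoclax in FOXM1-KD cells with DESeq2, and from 183 to 59 (DESeq2) and 0 (filterByExpr) for the difference between venetoclax responses.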
